A study of Cucurbita pepo with 18 samples.

Results

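Seed coats of the hull-less (HL) accession of *Cucurbita pepo* were compared with those of the hulled (H) accession over all 3 stages at once. All 18 of the 18 libraries of the series entered the comparison, 9 HL and 9 H, with days after pollination (DAP) as a covariate. The genes described are those that differed between the accessions in the same direction at 5, 10, and 20 DAP, which were 659 of 24259 genes tested. The study sequenced seed coat RNA to follow the secondary cell wall (SCW) from before its formation to a late stage, with 3 biological replicates for each accession and stage. Each accession is 1 laboratory line, and the pair were the parents of an F2 population used to map the hull-less trait. HL carries a recessive mutant allele of *CpNST1*, which the study places under that trait, and H carries the hulled allele. With 1 line on each side, the *CpNST1* allele cannot be told apart from any other difference between the 2 genomes, and p-values measure the spread between seed coat samples of these lines.

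A pumpkin seed coat is built from several cell layers, some of which thicken their walls after cell growth ends. The thickened SCW holds cellulose, xylan, and lignin, and in *Arabidopsis* NAC transcription factors of the NST group switch on its MYB regulators and its biosynthetic enzymes. In the hull-less seed coat these walls stay thin, which leaves the seed without a hard shell.

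Library totals were 16454156 to 18017335 in HL (median 17350194) and 13827773 to 18443048 in H (median 17349991), over 29484 features of which 27868 are annotated genes and 1616 are loci outside the annotation. Levels are given as CPM, the counts scaled to library size and between libraries. The detection floor was set at 3 counts in a library, or 0.137 to 0.226 CPM. Floors cover counting error only, and bulk RNA cannot tell fewer cells of a type apart from less RNA per cell. The first principal component of log2 CPM (39.3% of variance) followed stage. The third (14.1%) separated the accessions at each stage, with scores of 12.1 to 110 in HL and -108 to -15.0 in H. The hulled 10 DAP replicate 1 stood apart from the other replicates of its group, since its count difference from each (chi-square per gene, 261 and 187) was well above that between the other two (38.0).

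**Figure D1:**
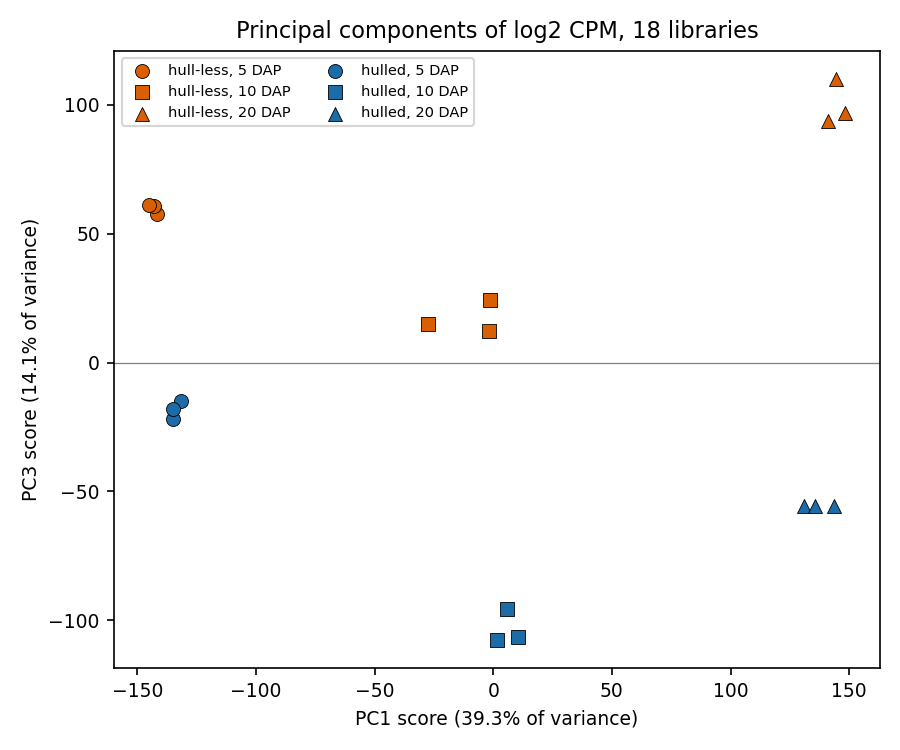
Principal component scores of the 18 libraries from log2 CPM, PC1 (39.3% of variance) on the x axis and PC3 (14.1%) on the y axis, with HL in orange, H in blue, and a marker for each stage. PC3 scores were 12.1 to 110 in the 9 HL libraries and -108 to -15.0 in the 9 H libraries.

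Over all stages 3220 genes (13.3% of those tested) were called, 1260 higher (5.19%) and 1960 lower (8.08%) in HL. Calls required that the p of edgeR's quasi-likelihood test, after Benjamini-Hochberg adjustment, be 0.05 or less and that the log2 fold change of HL over H be 1 or more in size. Most of these genes were not called at every stage. Of the 3220, 659 were called in that direction at all 3 stages, 1260 at 2 stages, and 251 at 0 stages. The stages had 2034 calls (8.38%) at 5 DAP, 4250 (17.5%) at 10 DAP, and 4966 (20.5%) at 20 DAP, each from its own 6 libraries with the spread estimated over all 18.

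The 659 genes called in the same direction at all 3 stages (2.72%) divided into 235 higher (0.969%) and 424 lower (1.75%) in HL. A further 96 genes (0.396%) were called at all 3 stages with signs that differed. In 626 of the 659 the HL and H libraries did not overlap at any stage. Over all 18 libraries, across stages, the lowest HL library was above the highest H library in 141 of the 235 higher genes, and the highest HL library was below the lowest H library in 264 of the 424 lower genes. The set was chosen by calls from these same libraries, and the share without overlap among all genes tested was not counted. Nothing is therefore read from these counts of genes without overlap. Without the hulled 10 DAP replicate 1 the count was 705, which included 609 of the 659, and 3120 genes were called over all stages.

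The median log2 fold change of the higher genes was 2.78 at 5 DAP, 3.10 at 10 DAP, and 2.79 at 20 DAP. That of the lower genes was -3.32 at 5 DAP, -4.03 at 10 DAP, and -3.62 at 20 DAP. The 3 stage values of a gene spanned at most 1 on the log2 scale in 226 genes, 101 higher and 125 lower, and the median span was 1.34. A difference between stages in the accession effect, tested as an interaction in edgeR at an adjusted p of at most 0.05, was called in 6918 of all genes (28.5%) and in 129 of the 659 (19.6%). The rule asks for a call at every stage, so nothing is read from that share. From 5 to 20 DAP, 9703 of all genes changed in HL (40% of those tested) and 9266 in H (38.2%). Of the 659, 131 rose and 142 fell over that time in HL, 139 rose and 147 fell in H, and 277 (42.0%) changed in neither, against 48.3% of all genes tested. Nearest to the fold limit, *Cp4.1LG17g09840* (a pentatricopeptide repeat protein) was inside with a smallest stage value of -1.00157, and *Cp4.1LG13g03350* (a GTPase-activating protein) was outside with 0.999675. A further 494 genes passed the adjusted p at all 3 stages in one direction but had an absolute log2 fold change under 1 at some stage.

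**Figure D2:**
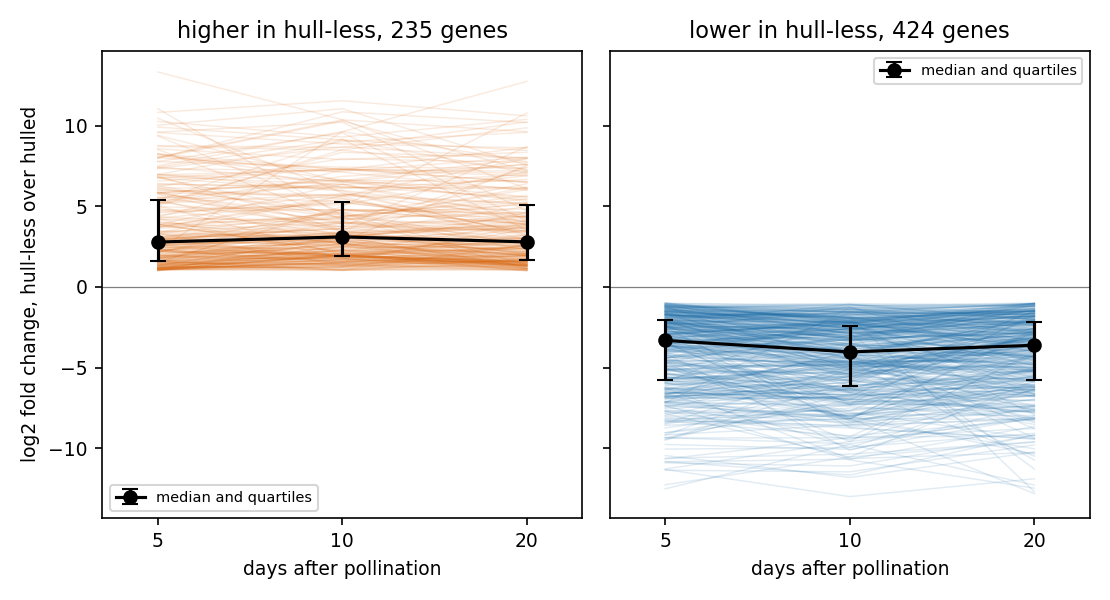
Log2 fold change of HL over H at 5, 10, and 20 DAP for each of the 235 genes higher in HL (left, orange lines) and the 424 genes lower in HL (right, blue lines), with black points and bars for the median and quartiles. The medians stayed between 2.78 and 3.10 for the higher genes and between -4.03 and -3.32 for the lower genes.

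Many of these genes were weakly expressed, short, or without a name. Their median level over the 18 libraries was 4.601 CPM for the higher and 3.05 CPM for the lower genes, against 14.8 CPM for all genes tested. Their median transcript length was 1320 bases for the higher and 1175.5 bases for the lower genes, against 1685 bases for all. The description field was empty for 24.6% of them, against 13.6% of all genes. Of the loci outside the annotation 11.8% (127 of 1076 tested) were in the set, against 2.29% of annotated genes (532 of 23183). Of the 659, 247 had more than 3 counts in every library. Among the higher genes 53 had 3 counts or fewer in all 9 H libraries, and among the lower genes 108 had 3 counts or fewer in all 9 HL libraries. For genes above 3 counts in every library the median log2 fold change over all stages was 1.84 for the 118 higher and -2.01 for the 129 lower genes.

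Among well expressed genes above 3 counts in every library, a ribosomal protein gene differed by nearly the same factor at each stage. *Cp4.1LG05g02690*, closest to 60S ribosomal protein L15-2 of the large ribosomal subunit, had 25.3, 27.5, and 31.5 CPM in HL at 5 DAP, 19.8, 21.3, and 23.9 at 10 DAP, then 33.6, 30.0, and 41.2 at 20 DAP. In H it had 0.715, 1.35, and 0.611 CPM at 5 DAP, 0.748, 0.933, and 0.721 at 10 DAP, then 0.960, 1.56, and 1.15 at 20 DAP. Each HL library was thus far above each H library at every stage, and the log2 fold change over all stages was 4.85 ± 0.16 (SE, edgeR adjusted p = 1.418e-12). Its stage values of 4.96, 4.75, and 4.83 spanned 0.21.

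*Cp4.1LG05g03910*, closest to RHOMBOID-like protein 3, had 20.5 to 165 CPM in HL (median 72.2) and 0.576 to 12.8 CPM in H (median 2.67). Rhomboid proteins cut other proteins within the membrane. Its log2 fold change was 4.42 ± 0.42 (SE, edgeR adjusted p = 7.468e-07), with stage values of 3.39, 4.07, and 6.18 (interaction adjusted p = 0.0194). *Cp4.1LG00g12150*, closest to the chloroplast zinc metalloprotease EGY2, had 4.41 to 24.2 CPM in HL (median 11.5) and 0.373 to 1.86 CPM in H (median 0.707), and its log2 fold change was 3.57 ± 0.26 (adjusted p = 3.376e-08). Neither gene had an H library above its lowest HL library.

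The transcription factor gene *Cp4.1LG01g18930*, closest to bHLH49, had 9.01 to 34.4 CPM in HL (median 20.2) and 0.354 to 3.01 CPM in H (median 1.39), with a log2 fold change of 3.85 ± 0.32 (SE, edgeR adjusted p = 1.306e-07). A locus outside the annotation that holds a cytochrome P450 domain (LG02, 762415 to 767459) had 25.7 to 160 CPM in HL (median 54.5) and 0.833 to 7.72 CPM in H (median 5.73), with a log2 fold change of 3.59 ± 0.42 (adjusted p = 7.405e-06). P450 enzymes oxidise a wide range of plant metabolites. At 10 DAP the 3 HL libraries of this P450 locus (105, 136, and 160 CPM) were highest, and its fold change differed between stages (interaction adjusted p = 0.0164).

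In the other direction, *Cp4.1LG11g00970*, closest to branched-chain-amino-acid aminotransferase 2, which acts in the metabolism of leucine, isoleucine, and valine, had 0.608, 0.432, and 0.549 CPM in HL at 5 DAP, 1.90, 1.92, and 1.58 at 10 DAP, then 0.715, 1.62, and 0.528 at 20 DAP. In H it had 5.34, 7.84, and 5.31 CPM at 5 DAP, 122, 97.1, and 86.8 at 10 DAP, then 114, 109, and 92.9 at 20 DAP. HL stayed under 2 CPM at each stage while H was much higher at the later stages, so that the log2 fold changes of -3.52, -5.82, and -6.76 differed between stages (interaction adjusted p = 0.000426). The value over all stages was -5.54 ± 0.40 (SE, edgeR adjusted p = 2.768e-08).

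*Cp4.1LG07g03630* is closest to gibberellin-regulated protein 1 (GASA1), a small secreted cysteine-rich peptide. It had 0.376 to 3.25 CPM in HL (median 1.72) and 9.10 to 269 CPM in H (median 88.5), and was lower in HL with a log2 fold change of -5.13 ± 0.60 (SE, edgeR adjusted p = 7.677e-06). H was lowest at 20 DAP (9.10 to 15.1 CPM), and the difference shrank there (-5.60, -6.96, and -2.70; interaction adjusted p = 0.0032). *Cp4.1LG07g02720*, closest to gibberellin 3-beta-dioxygenase 1, which makes active gibberellins, had at most 2 counts in any HL library and 0.655 to 3.78 CPM in H (median 2.75), at least 11.1-fold lower in HL. H had reads at each stage in each library.

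A DnaJ co-chaperone and a copper protein were also far lower in HL. *Cp4.1LG01g23380*, closest to chaperone protein DnaJ, had 0.285 to 2.24 CPM in HL (median 0.659) and 16.7 to 75.3 CPM in H (median 42.9), a log2 fold change of -5.29 ± 0.47 (SE, edgeR adjusted p = 3.317e-07) that was smaller at 20 DAP (-3.19, interaction adjusted p = 2.33e-05). *Cp4.1LG06g04160*, closest to blue copper protein, an electron carrier of the cell surface, had 0.655 to 4.07 CPM in HL (median 2.79) and 29.1 to 428 CPM in H (median 53.9), a log2 fold change of -5.17 ± 0.47 (adjusted p = 4.365e-07). The H values of both GASA1 and blue copper protein were highest in the hulled 10 DAP replicate 1, and both stayed called without it (-4.82 for GASA1 and -4.76 for blue copper protein, edgeR).

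**Figure D3:**
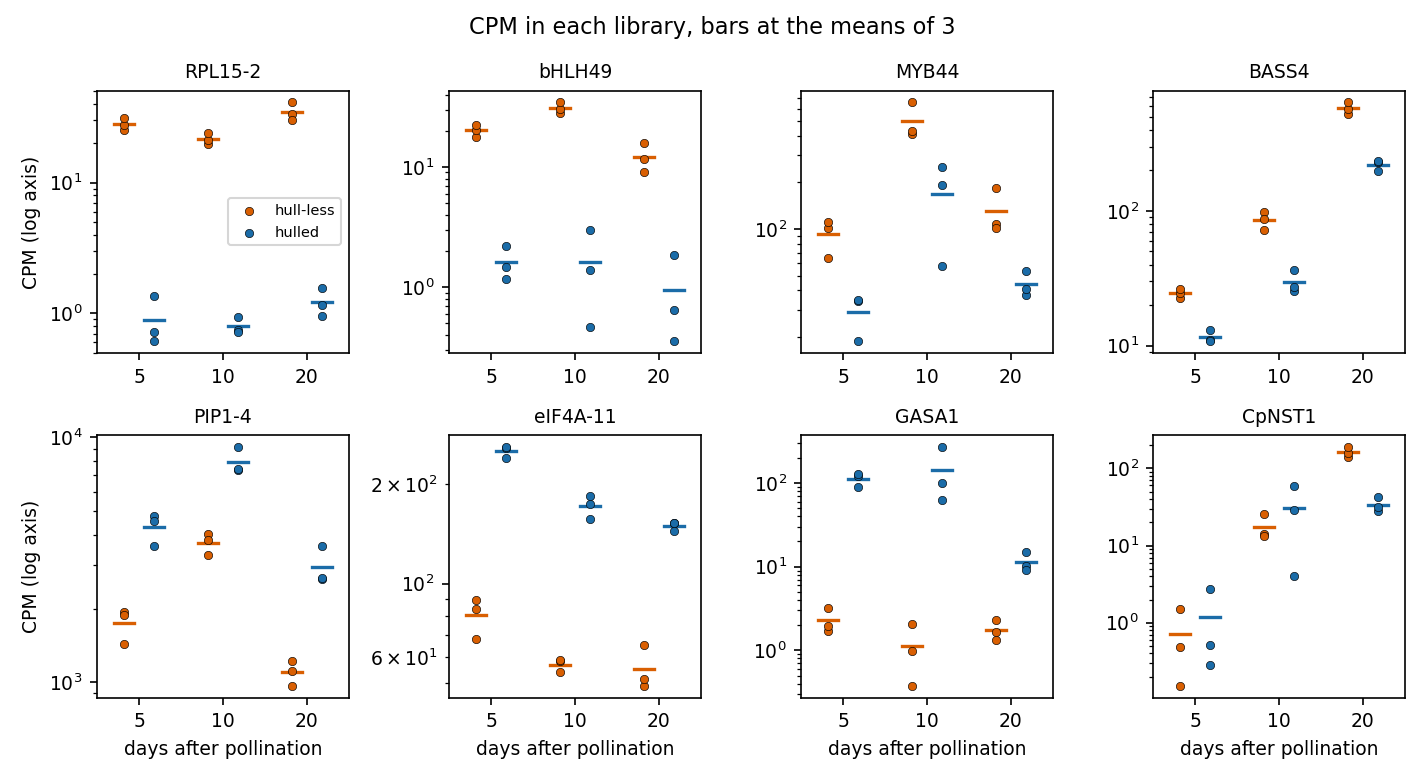
CPM in each library on a log axis for 8 genes by days after pollination, with HL (orange) left of H (blue) at each stage and bars at the means of 3 libraries. The *RPL15-2* gene had 19.8 to 41.2 CPM in HL and 0.611 to 1.56 CPM in H, whereas *CpNST1* overlapped at 5 and 10 DAP.

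Some genes were close to silent in one accession at all 3 stages. Folds are given for these as lower bounds, the mean CPM over the 9 libraries of one accession over the highest 3-count floor of a library of the other. *Cp4.1LG12g09490*, closest to GDSL esterase/lipase 5, had 1.11 to 82.8 CPM in HL (median 43.1) and at most 1 count in any H library, at least 178-fold higher. *Cp4.1LG06g08620*, closest to a pirin-like protein, had 8.18 to 21.5 CPM in HL (median 13.5) and at most 1 count in any H library, at least 65.8-fold higher. *Cp4.1LG00g09730*, closest to subunit TIM10 of the mitochondrial protein import machinery, had 2.56 to 14.008 CPM in HL (median 6.73) and 0 counts in all 9 H libraries, at least 36.4-fold higher. It also has a copy as defined below, and the sum of the copies is not given. The pirin-like and TIM10 genes had their reads at every stage, whereas the GDSL gene was low in HL at 5 DAP (1.11 to 2.43 CPM).

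In the other direction, *Cp4.1LG14g04160*, which holds a cupin domain, a fold also found in seed storage proteins, had 0 counts in 8 HL libraries, 1 count in the other, and 0.905 to 186 CPM in H (median 11.96), at least 252-fold lower in HL. In H it was highest at 20 DAP, with 126, 186, and 160 CPM. *Cp4.1LG18g00130*, with a DUF538 domain of unknown function, had at most 2 counts in any HL library and 7.6009 to 126 CPM in H (median 39.2), at least 219-fold lower. *Cp4.1LG03g16110*, closest to a cytochrome b561 and DOMON domain protein that moves electrons across membranes, had at most 3 counts in any HL library and 0.282 to 73.2 CPM in H (median 18.3), at least 132-fold lower. *Cp4.1LG09g06760*, closest to ARAD1, an arabinosyltransferase of the pectin side chains in *Arabidopsis*, had at most 2 counts in any HL library and 3.98 to 89.6 CPM in H (median 5.78), at least 101-fold lower. Of these bounds 3 depend on 1 stage: without 20 DAP they were 29.7-fold for the cupin gene and 39.5-fold for the b561 gene, and without 10 DAP 35.5-fold for ARAD1. Without the hulled 10 DAP replicate 2 alone the ARAD1 bound was 64.03-fold. Bounds of this kind are over all stages and do not hold at each stage. At 5 DAP the b561 gene had only 6 to 13 counts in H, and the cupin gene 19 to 34.

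Genes of like size at each stage included several regulators and transporters with high counts. The transcription factor gene *Cp4.1LG10g02440*, closest to MYB44, a stress regulator in *Arabidopsis*, had 65.4 to 659 CPM in HL (median 110) and 18.8 to 253 CPM in H (median 41.0). Its stage log2 fold changes of 1.66, 1.58, and 1.58 spanned 0.08, around 1.61 ± 0.24 over all stages (SE, edgeR adjusted p = 9.26e-05). With day as a number in place of a factor it was not called (adjusted p = 0.0720). *Cp4.1LG06g01950*, closest to the zinc finger protein ZAT10, another stress regulator, had 94.3 to 766 CPM in HL (median 281) and 4.06 to 148 CPM in H (median 28.6), a log2 fold change of 3.05 ± 0.49 (adjusted p = 0.000178). *Cp4.1LG11g04670*, closest to bHLH143, had 56.6 to 225 CPM in HL (median 166) and 28.2 to 106 CPM in H (median 78.2), a log2 fold change of 1.20 ± 0.15 (adjusted p = 1.878e-05).

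Among the transporters, *Cp4.1LG01g14090*, closest to the efflux protein DETOXIFICATION 12, had 37.2 to 340 CPM in HL (median 141) and 2.75 to 47.3 CPM in H (median 8.49), a log2 fold change of 3.48 ± 0.42 (SE, edgeR adjusted p = 1.245e-05). *Cp4.1LG01g24870*, closest to the chloroplast cotransporter BASS4, had 22.8 to 638 CPM in HL (median 86.4) and 10.8 to 234 CPM in H (median 27.4). Its level was highest at 20 DAP in both accessions, and its stage values of 1.08, 1.53, and 1.38 gave 1.33 ± 0.10 (adjusted p = 4.875e-08). *Cp4.1LG16g08410*, closest to the proteasome-associated protein ECM29, had 96.6 to 202 CPM in HL (median 152) and 36.4 to 66.3 CPM in H (median 45.8), a log2 fold change of 1.61 ± 0.13 (adjusted p = 1.134e-07).

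On the lower side, *Cp4.1LG01g05240*, closest to aquaporin PIP1-4, a water channel of the plasma membrane, had 966 to 4043 CPM in HL (median 1875) and 2645 to 9134 CPM in H (median 4542). It was the most abundant gene named here, its libraries did not overlap within any stage, and its log2 fold change was -1.28 ± 0.13 (SE, edgeR adjusted p = 2.098e-06). *Cp4.1LG12g01630*, closest to the magnesium transporter MRS2-2, had 37.7 to 100 CPM in HL (median 91.1) and 119 to 262 CPM in H (median 190), a log2 fold change of -1.36 ± 0.11 (adjusted p = 1.4e-07). *Cp4.1LG17g04750*, closest to initiation factor 4A-11, an RNA helicase of translation, had 49.2 to 89.3 CPM in HL (median 58.8) and 144 to 258 CPM in H (median 174). With stage values of -1.64, -1.59, and -1.43 it stood at -1.56 ± 0.08 over all stages (adjusted p = 2.792e-10). *Cp4.1LG07g10810*, closest to the pentatricopeptide repeat protein At2g15690, had 15.6 to 36.0 CPM in HL (median 25.7) and 40.9 to 140 CPM in H (median 69.8), a log2 fold change of -1.53 ± 0.08 (adjusted p = 8.909e-10). *Cp4.1LG04g15090*, closest to mini zinc finger protein 3, had 0.963 to 90.02 CPM in HL (median 2.28) and 4.13 to 407 CPM in H (median 21.5), a log2 fold change of -2.39 ± 0.31 (adjusted p = 2.153e-05).

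Of 68 orthologs of *Arabidopsis* SCW genes, a list the study drew up, 59 were tested. Over all stages 0 were called higher and 27 lower in HL, against 5.19% and 8.08% of all genes, and their median log2 fold change was -1.45, against -0.04 for all genes tested. At all 3 stages 2 of the 59 (3.39%) were called lower and 0 higher, against 2.72% of all genes in either direction, a share near the background. The median over the 59 was -0.37 at 5 DAP, -1.57 at 10 DAP, and -1.85 at 20 DAP. The study chose the orthologs by protein identity and described them in these samples, so the list is not independent evidence of a direction. The summed level of CesA4, CesA7, and CesA8, which make the cellulose of the SCW, was 24.7 to 25.9 CPM in HL and 30.1 to 30.7 CPM in H at 5 DAP, and 13.2 to 16.4 CPM in HL and 723 to 937 CPM in H at 20 DAP. Whether the share of wall-forming cells had a part in these values was not tested.

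The 2 orthologs lower at every stage were a regulator and an enzyme. *Cp4.1LG16g07120* corresponds to MYB58 and MYB63, which switch on lignin genes in *Arabidopsis*, and it had at most 1 count in any HL library and 0.0953 to 13.3 CPM in H (median 3.34), at least 22.5-fold lower in HL (10.7-fold without 20 DAP). At 5 DAP this gene had only 2, 21, and 11 counts in H, so its call at that stage was near the floor. *Cp4.1LG16g04950*, corresponding to F8H and FRA8 of xylan synthesis, had 5.17, 6.57, and 8.01 CPM in HL at 5 DAP, 0.952, 1.71, and 1.81 at 10 DAP, then 0.596, 0.115, and 0.132 at 20 DAP. In H it had 15.6, 31.6, and 19.9 CPM at 5 DAP, 53.7, 6.67, and 23.6 at 10 DAP, then 210, 170, and 190 at 20 DAP. The accessions did not overlap at any stage, and the log2 fold changes of -1.76, -4.23, and -9.35 differed between stages (interaction adjusted p = 0.000178).

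*CpNST1* itself (*Cp4.1LG12g04350*) was not in the set. It had 0.152, 0.480, and 1.51 CPM in HL at 5 DAP, 14.2, 13.3, and 25.5 at 10 DAP, then 141, 156, and 189 at 20 DAP. In H it had 0.286, 2.71, and 0.517 CPM at 5 DAP, 58.7, 4.07, and 29.1 at 10 DAP, then 42.4, 27.7, and 31.6 at 20 DAP. HL was higher at 20 DAP (edgeR adjusted p = 0.0282), and the accessions overlapped at 5 and 10 DAP. The log2 fold change over all stages was 0.34 ± 0.62 (SE, edgeR adjusted p = 0.713), from stage values of -0.69, -0.80, and 2.26.

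Gene groups were counted by words of the deposited descriptions, which also catch genes that share only a domain. Cytochrome P450 genes had 22 higher and 14 lower of 160 tested over all stages (22.5%, against 13.3% of all genes), and 5 higher and 3 lower at all 3 stages. Besides the locus on LG02, *Cp4.1LG04g16010*, closest to P450 71A4, had 0.458 to 10.5 CPM in HL (median 1.45) and 0 to 0.0466 CPM in H (median 0), at least 15.9-fold higher (7.94-fold without 20 DAP). A locus outside the annotation with the same domain (LG18, 1981455 to 1985774) had 0 to 34.0 CPM in HL (median 4.37) and 0.886 to 237 CPM in H (median 135), a log2 fold change of -3.99 ± 0.45 (SE, edgeR adjusted p = 5.098e-06). GDSL esterases and lipases, enzymes of lipid and wall ester turnover, had 9 higher and 13 lower of 116 over all stages (18.97%, against 13.3% of all genes). At all 3 stages they had 5 higher and 2 lower. The genes called at all 3 stages were 5% of the P450 and 6.03% of the GDSL genes, against 2.72% of all genes.

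Receptor-like kinases had 42 higher and 37 lower of 538 over all stages (14.7%, near the 13.3% of all genes). At all 3 stages they had 3 higher and 6 lower (1.67%, against 2.72% of all genes). *Cp4.1LG19g01560*, closest to the leucine-rich repeat kinase At1g06840, had 4.29 to 11.7 CPM in HL (median 8.11) and 0 to 0.467 CPM in H (median 0.191), a log2 fold change of 5.35 ± 0.38 (SE, edgeR adjusted p = 2.335e-08), while *Cp4.1LG02g11330*, with the same closest protein, had at most 2 counts in any HL library and was at least 9.53-fold lower. Genes with disease resistance in their description had 1 higher and 1 lower of 49 at all 3 stages (4.08%, against 2.72% of all genes). The higher one was *Cp4.1LG11g09510*, closest to ADR2, with 0.816 to 5.71 CPM in HL (median 2.79) and 0 to 0.424 CPM in H (median 0).

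Ribosomal protein genes had 3 higher and 5 lower of 512 at all 3 stages (1.56%, against 2.72% of all genes). Over all stages they had 8 higher and 19 lower (5.27%, against 13.3% of all genes). Pentatricopeptide repeat genes, whose proteins bind RNA of plastids and mitochondria, had 3 higher and 8 lower of 366 (3.01%, against 2.72% of all genes). *Cp4.1LG04g10210*, closest to the RNase P protein PRORP1, had 30.1 to 58.3 CPM in HL (median 47.97) and 11.9 to 17.95 CPM in H (median 15.7), a log2 fold change of 1.52 ± 0.12 (SE, edgeR adjusted p = 7.115e-08). F-box genes had 3 higher and 5 lower of 235 (3.40%, against 2.72% of all genes). Histone genes had 0 higher and 5 lower of 87 (5.75%, against 2.72% of all genes). Among these, a histone H4 gene (*Cp4.1LG05g09220*) had 0.858 to 23.5 CPM in HL (median 3.10) and 6.93 to 53.4 CPM in H (median 9.24), a log2 fold change of -1.64 ± 0.24 (SE, edgeR adjusted p = 9.593e-05). Histone genes called lower numbered 5 at 5 DAP (5.75%, against 4.66% of all genes), 14 at 10 DAP (16.1%, against 10.1%), and 26 at 20 DAP (29.9%, against 13.1%).

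Kinesins, seed storage and oil body proteins, and glycosyltransferases of small molecules each had 0 genes called in one direction at all 3 stages, of 89, 82, and 67 tested. The share of all genes was 2.72%, so with lists of this size nothing is read from the 0. Over all stages 15 kinesins were lower and 1 higher (17.98%, against 13.3% of all genes). Genes of photosystems and light harvesting had 14 higher and 5 lower of 91 over all stages (20.9%, against 13.3% of all genes). At all 3 stages they had 2 higher and 3 lower (5.49%, against 2.72% of all genes). The interaction was called in 64.8% of them, against 28.5% of all genes. The summed level of 102 photosystem and chlorophyll-binding genes, which mark green tissue, was 12195 to 13702 CPM in HL and 4906 to 5603 CPM in H at 20 DAP. At 10 DAP it was 2129 to 3465 CPM in HL and 1655 to 2003 CPM in H. The order was reversed at 5 DAP, with 1863 to 2130 CPM in HL and 2542 to 2647 CPM in H. The part of green tissue in these counts was not tested. The seed storage and oil body list also takes late embryogenesis abundant genes, and how far it marks embryo tissue was not tested. Its genes summed to 1856 to 4554 CPM in HL and 3740 to 11234 CPM in H at 20 DAP. At 10 DAP their sum was higher in HL (5705 to 6615 CPM, against 2679 to 4501 in H), and at 5 and 20 DAP the accessions overlapped. Peroxidases had 1 higher and 2 lower of 68 at all 3 stages (4.41%, against 2.72% of all genes). The higher one, *Cp4.1LG19g09160*, is closest to peroxidase 72 in the deposited description, although the study's list gives another gene, *Cp4.1LG16g06810*, as the ortholog of that SCW peroxidase. The first had 5.95 to 21.0 CPM in HL (median 12.5) and 0.833 to 8.96 CPM in H (median 2.40). The second had 0 to 0.720 CPM in HL (median 0.179) and 0.667 to 3.01 CPM in H (median 2.34), and was lower over all stages (-3.22 ± 0.56, SE, edgeR adjusted p = 0.000397) but not called at 5 DAP (adjusted p = 0.0509). Dioxygenases of the 2-oxoglutarate type had 0 higher and 1 lower of 119 (0.840%, against 2.72% of all genes), the gibberellin gene above. Transposon-derived genes had 3 higher and 3 lower of 57 (10.5%, against 2.72% of all genes). These 6 were all loci outside the annotation, of which 11.8% were in the set, so nothing is read from the share. A locus outside the annotation with integrase and retroviral protease domains (LG03, 8385418 to 8393167) had at most 3 counts in any HL library and 3.01 to 25.04 CPM in H (median 11.3), at least 57.0-fold lower (32.5-fold without 5 DAP). Among transcription factor families by the deposited domain, the Myb family had 3 higher and 5 lower of 200 (4%), NAM (the NAC domain) had 2 and 2 of 88 (4.55%), and WRKY had 3 and 0 of 68 (4.41%). The HLH family had 2 and 1 of 127 (2.36%), AP2 had 2 and 0 of 67 (2.99%), and homeobox had 1 and 1 of 41 (4.88%). SRF-TF (2.94% of 34), B3 (2.38% of 42), and bZIP (1.52% of 66) each had 0 higher and 1 lower. These family shares are at all 3 stages, against 2.72% of all genes.

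The genes were unevenly placed. LG00, which in the zucchini assembly gathers scaffolds not placed on a linkage group, held 166 of the 659 (25.2%) but 4.84% of the genes tested. Of its genes 14.1% were called in the same direction at all 3 stages, 43 higher and 123 lower, against 2.14% of the genes on LG01 to LG20. Among those linkage groups the share ran from 1.13% on LG13 to 4.45% on LG16. Over all stages 32.0% of LG00 genes were called, against 12.3% of the others. The interaction, in contrast, was called in 20.3% of LG00 genes and 28.9% of the others. On LG01 to LG20, 13.996% of the genes in the set (69 of 493) had the next tested gene on either side in the set too, 60 of them in the same direction, against 3.92% of the other genes. On LG00 the shares were 29.5% (49 of 166) and 25.5%. Without LG00 and the loci outside the annotation the set had 421 genes, 161 higher and 260 lower.

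**Figure D4:**
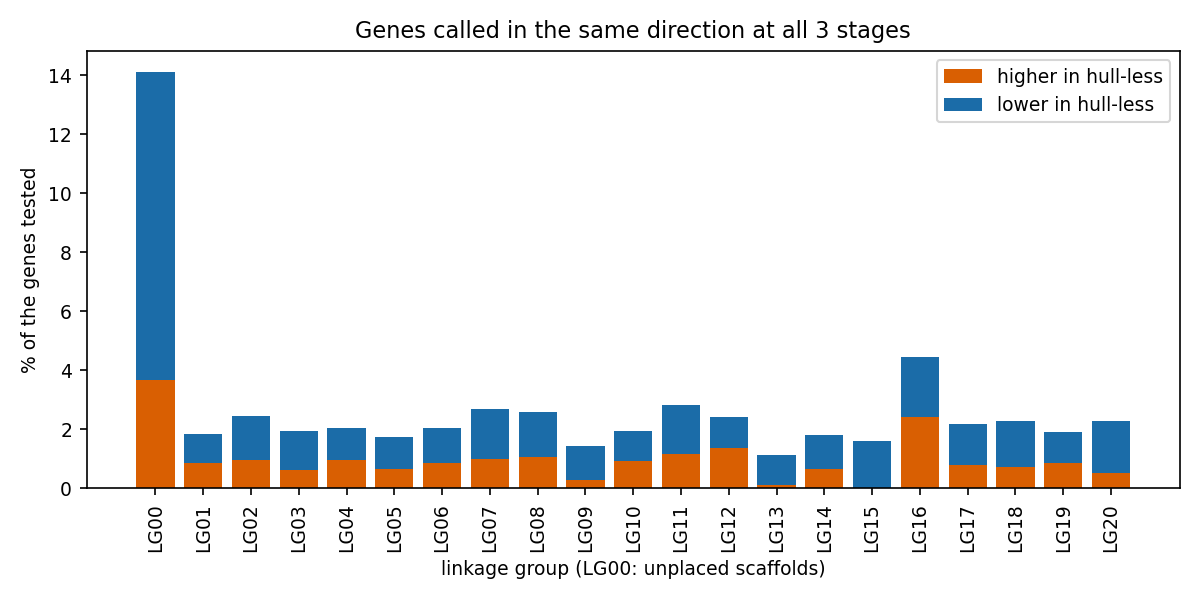
Percentage of the tested genes of each linkage group that were called in the same direction at all 3 stages, stacked by direction (orange, higher in HL; blue, lower in HL). LG00, the unplaced scaffolds, reached 14.1%, and the other groups ran from 1.13% to 4.45%.

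Runs of 3 or more neighbouring tested genes called in one direction numbered 8, with 26 genes, and 3 of the runs were on LG00. On LG08, from 4480422 to 4500338, 4 neighbours were lower in HL. These were *Cp4.1LG08g00260* (transcription factor 25), *Cp4.1LG08g00140* (a DUF1295 protein), *Cp4.1LG08g00160* (a calcium-binding protein), and *Cp4.1LG08g00170* (NAC14), with log2 fold changes of -4.15, -3.36, -7.22, and -4.57. Their lowest counts in an HL library were 0, 0, 0, and 1, so these fold changes depend on the prior count. The calcium-binding gene had at most 5 counts in any HL library, and its H libraries at 10 DAP ran from 2.78 to 66.8 CPM. On LG11, from 6681717 to 6708280, *Cp4.1LG11g08280* (an HD domain protein), *Cp4.1LG11g08290*, and *Cp4.1LG11g08310*, both closest to the autophagy protein ATG18b, were higher in HL. The log2 fold change was 2.56 for the first, and the ATG18b genes had at most 3 counts in any H library and were at least 16.5-fold and 23.4-fold higher. On LG07, from 8229321 to 8244978, a pair of GDSL genes (*Cp4.1LG07g09170* and *Cp4.1LG07g09380*) and a chloroplast UPF0603 gene (*Cp4.1LG07g09290*) were higher in HL. The log2 fold change was 4.29 for *Cp4.1LG07g09170* and 4.50 for *Cp4.1LG07g09380*, and the UPF0603 gene, with at most 2 counts in any H library, was at least 6.72-fold higher. That of *Cp4.1LG07g09170* differed between stages (1.51, 4.98, and 10.79; interaction adjusted p = 0.000164 in edgeR), and the value at 20 DAP rests on 0 counts in H. The run on LG08 from 8390649 to 8396648 holds genes that overlap on opposite strands, and whether counting used strand is not given in the sources used here. Coordinates are those of the deposited Cp4.1 annotation.

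Several of the strongest differences came in pairs of genes with the same closest protein and nearly the same length that went opposite ways. Copies were taken as genes with the same closest protein in the deposited description and transcript lengths within 1%, and their sequences were not compared. Among the 402 genes of the set with a closest protein, 52 had such a copy (12.9%), against 6.85% of all tested genes with a closest protein. When the counts of copies were added together and tested, 44 of the 52 were no longer called in the same direction at all 3 stages and 34 were no longer called over all stages. How often adding genes together ends a call in general was not counted, so nothing is read from these counts. In 8 pairs one copy was higher and the other lower in HL at all 3 stages, each pair had a gene on LG00, and the sum of the pair was called over all stages in 0 of the 8. The pairs were chosen for opposite calls in these same libraries, which favours a sum that is not called, so nothing is read from the 0. The fits were edgeR's, the highest absolute log2 fold change of a sum was 0.92, and the lowest of a single copy was 1.24. How reads that match both copies were assigned is not given in the sources used here, so each of these single genes is uncertain, and the part of that step was not tested. Outside those pairs, the genes closest to bHLH49, TIM10, and histone H4 and the HD domain gene of the LG11 run also had a copy. Their sums are not given, so their single values carry the same limit.

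The clearest pair encodes Tubby-like F-box protein 7 (TLP7). *Cp4.1LG00g08320* (LG00, 26684188 to 26688444, 1768 bases of transcript) had 57.1, 60.4, and 46.7 CPM in HL at 5 DAP. It had 191, 198, and 239 CPM in HL at 10 DAP, then 93.7, 96.3, and 113 CPM at 20 DAP. In H it had 0.238 to 2.20 CPM (median 0.470). Its log2 fold change of 7.46 ± 0.25 (SE, edgeR adjusted p = 1.812e-12) was the highest among well expressed genes above 3 counts in every library. The copy *Cp4.1LG14g03520* (LG14, 2264319 to 2268568, 1771 bases) had 0.405 to 1.64 CPM in HL (median 1.07). In H it had 66.7, 56.2, and 59.1 CPM at 5 DAP, 69.4, 221, and 199 at 10 DAP, then 74.0, 76.3, and 88.0 at 20 DAP, for a log2 fold change of -6.72 ± 0.23 (adjusted p = 2.579e-12). The HL reads lay almost entirely on the first copy and the H reads on the second. Added together the copies averaged 123 ± 70.7 CPM in HL and 102 ± 63.4 CPM in H (SD, n = 9 each), and the sum did not pass the test (log2 fold change 0.19 ± 0.17, edgeR adjusted p = 0.415).

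Oxygen-evolving enhancer protein 2-1 (OEE2-1), a subunit of photosystem II, had its pair on LG00 and LG14 too. *Cp4.1LG00g08180* (LG00, 26377923 to 26380428) averaged 42.8 CPM in HL and 0.988 CPM in H, and *Cp4.1LG14g03090* (LG14, 2496745 to 2499220) averaged 1.15 CPM in HL and 31.4 CPM in H. Their log2 fold changes were 5.41 ± 0.72 and -4.79 ± 0.23, and that of the sum was 0.14 ± 0.23 (SE, edgeR adjusted p = 0.686). The pair closest to LEC14B averaged 10.6 ± 1.48 CPM in HL and 9.52 ± 3.10 CPM in H when summed (SD, n = 9 each), with 0.20 ± 0.10 for the sum (adjusted p = 0.131), against 4.34 for *Cp4.1LG00g10180* and -6.27 for *Cp4.1LG12g05270*. The transcription factor pair closest to NAC14 had 2.51 for *Cp4.1LG00g06240* and -4.57 for *Cp4.1LG08g00170*, the last gene of the LG08 run, and 0.29 ± 0.21 for the sum (adjusted p = 0.317).

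For YSL7, a transporter of metals bound to nicotianamine, *Cp4.1LG01g25940* averaged 44.7 CPM in HL and 4.12 CPM in H, *Cp4.1LG00g07810* averaged 0.423 CPM in HL and 20.2 CPM in H, and the sum had a log2 fold change of 0.59 ± 0.23 (SE, edgeR adjusted p = 0.0606). For RPAC2, a subunit shared by RNA polymerases I and III, *Cp4.1LG00g09720* had 5.29 and *Cp4.1LG02g11650* had -2.05, with -0.26 ± 0.16 for the sum (adjusted p = 0.209). For fructose-bisphosphate aldolase 3, both genes were on LG00, and the sum kept a difference of 0.92 ± 0.15 (adjusted p = 0.000258) that passed the adjusted p but not the fold limit. For lipid-transfer protein 10, *Cp4.1LG19g01490* had 0.298 to 94.6 CPM in HL and at most 2 counts in any H library, at least 217-fold higher, and *Cp4.1LG00g05770* had 0 to 0.355 CPM in HL and 2.33 to 159 CPM in H. Here the sum itself changed sign with stage, at 2.40 at 5 DAP, -0.51 at 10 DAP, and -4.17 at 20 DAP, since HL had 70.2 to 77.9 CPM at 5 DAP and 0.298 to 0.635 CPM at 20 DAP.

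**Figure D5:**
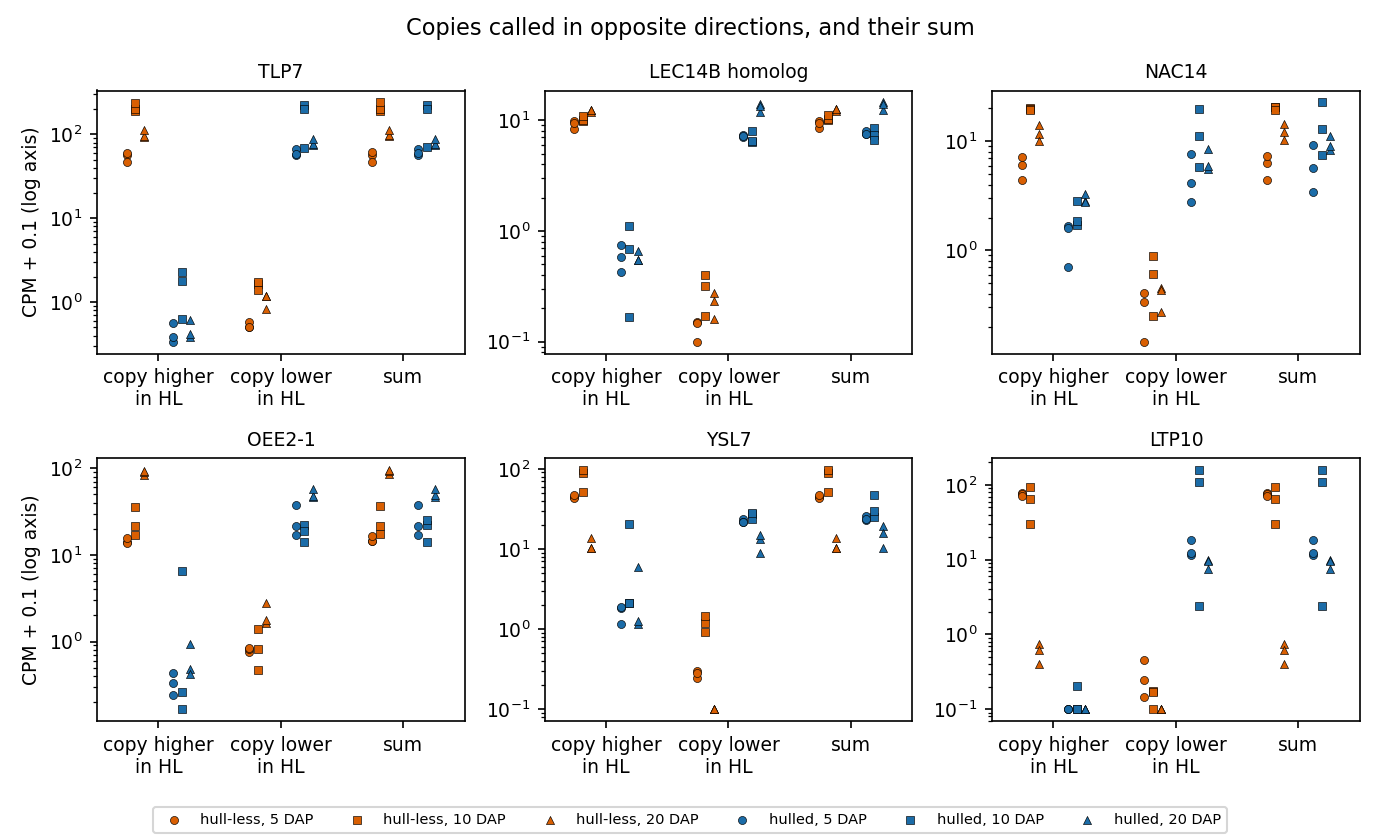
CPM + 0.1 on a log axis in each library for 6 of the 8 pairs of copies, for the copy higher in HL, the copy lower in HL, and their sum, with HL (orange) left of H (blue) and a marker for each stage. Summed TLP7 copies averaged 123 CPM in HL and 102 CPM in H, and the single copies of each pair were far apart between the accessions.

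A pair of loci outside the annotation, picked out after its values were seen, had the same layout. Both hold a ribosomal protein L13 domain. The locus on LG08 (2514852 to 2516772) had 27.6 to 83.2 CPM in HL (median 58.0) and 6.93 to 15.2 CPM in H (median 10.9), and the locus on LG00 (23960153 to 23961964) had 0.146 to 0.760 CPM in HL (median 0.298) and 29.2 to 61.8 CPM in H (median 53.7). The sum was 27.8 to 83.9 CPM in HL (median 58.2) and 36.1 to 76.4 CPM in H (median 62.2), and was not tested.

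Genes that changed sign between stages fell outside the set although they were called at every stage. *Cp4.1LG01g14280*, closest to a steroid 4-dehydrogenase, had 28.0 to 464 CPM in HL (median 172) and 27.7 to 491 CPM in H (median 179). At 20 DAP it had 277, 354, and 464 CPM in HL and 28.9, 47.0, and 27.7 CPM in H. Its stage log2 fold changes were -2.33, -1.38, and 3.40, and the value over all stages was -0.47 ± 0.75 (SE, edgeR adjusted p = 0.668). *Cp4.1LG01g00110*, closest to RBOHF, an NADPH oxidase that makes superoxide at the plasma membrane, had -1.78, -1.15, and 1.87, and *Cp4.1LG12g02040*, a haloacid dehalogenase-like hydrolase, had 1.82, 2.69, and -1.33. Their values over all stages were -0.45 ± 0.46 and 1.18 ± 0.54 (adjusted p = 0.481 and 0.107). The hydrolase gene was called higher under other settings, among them DESeq2 (1.18, adjusted p = 0.0297).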

How the data were processed

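The 18 seed coat libraries were grouped by accession and stage from the sample labels. The authors filtered the reads, mapped them to the zucchini genome, and deposited 1 table, whose raw count columns (whole numbers, not normalized) were the main data and whose FPKM columns, computed with Cufflinks per the methods, served as an alternative. The aligner and the tool that counted reads are not given in the sources used here. The table also holds the authors' group means, fold changes, and p-values for each stage, which were not used, and 5 further files were not used.

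Genes were filtered with filterByExpr and scaled by TMM, and edgeR 4.0.16 (R 4.3.3) fitted the quasi-likelihood test with day as a factor plus accession (14 residual degrees of freedom). The 6 groups were fitted for the stage contrasts and the interaction (12 residual degrees of freedom). The SE is the absolute log2 fold change over the square root of F. The scripts were tested on simulated data. Other scalings (RLE, upper quartile), DESeq2 1.42.0, and limma 3.58.1 were alternatives, the last on voom values, log2(FPKM + 1), and log2(FPKM + 0.1) where 3 or more libraries reached an FPKM of 1. Further ones were all genes with at least 1 count, a mean count of at least 10, no fold limit, day as a number, the mean of the stage contrasts, separate fits, the replicate number as a block, and leaving out each library or stage. Summing copies and recomputing fold bounds without a library or stage were chosen after seeing the data.

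Genes named are, among those in the set with a description: the 6 highest and 6 lowest fold changes with more than 3 counts in every library and a mean count of at least 100; the 4 higher and 4 lower genes of highest CPM that had 3 counts or fewer in every library of the other accession; the 6 and 6 of highest CPM with a span of at most 1; *CpNST1* and the SCW orthologs in the set; the most abundant member of each word list in each direction; 3 genes of mixed sign; and, named after their values were seen, genes of runs, of copies, and of the word lists, and those nearest the fold limit. The members and lists were chosen with earlier results of these data known. Gene names come from the deposited descriptions, and the RefSeq table of another assembly was not used.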

Additional observations from a re-analysis of the deposited data

Results flagged for a closer look

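For 20 of the 61 genes that the naming rule chose, and for 2 of 23 named after their values were seen, the accession effect differed between stages by the interaction test in edgeR (adjusted p of at most 0.05 over all genes), against 28.5% of all genes. The genes of mixed sign were chosen for stage calls of opposite sign, so their adjusted p restates that choice, at 3.45e-07 for *Cp4.1LG01g14280*, 1.2e-05 for *Cp4.1LG01g00110*, and 0.000386 for *Cp4.1LG12g02040*. Among genes lower in HL at all stages, it was 2.33e-05 for *Cp4.1LG01g23380* (DnaJ), 0.000426 for *Cp4.1LG11g00970* (BCAT2), 0.0032 for *Cp4.1LG07g03630* (GASA1), 0.0166 for *Cp4.1LG03g16110* (cytochrome b561), 0.000178 for *Cp4.1LG16g04950* (F8H/FRA8), and 0.0479 for *Cp4.1LG05g09220* (histone H4). It was 0.000217 for *Cp4.1LG11g09530*, a GDSL gene with log2 fold changes of -1.91, -2.87, and -11.29, in which the value at 20 DAP rests on 0 counts in HL. It was 0.00567 for the P450 locus outside the annotation on LG18, whose log2 fold changes were -8.45, -4.89, and -2.60, the value at 5 DAP resting on 0 counts in HL, 0.0237 for a locus outside the annotation on LG07 that holds domains of replication factor A and of photosystem II protein PsbX, and 0.042 for *Cp4.1LG07g10960*, closest to EDR2. It was 7.72e-05 for *Cp4.1LG00g07810* (YSL7), whose value at 20 DAP rests on 0 counts in HL.

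Among genes higher in HL, the adjusted p was 0.0194 for *Cp4.1LG05g03910* (RHOMBOID-like 3), 0.0164 for the P450 locus outside the annotation on LG02, 0.00436 for *Cp4.1LG11g09510* (ADR2), 0.0104 for *Cp4.1LG04g10210* (PRORP1), 0.0114 for *Cp4.1LG16g04810* (a G-type lectin receptor kinase), 0.0258 for *Cp4.1LG19g09160* (peroxidase 72), 0.0469 for *Cp4.1LG16g08410* (ECM29), and 0.000164 for *Cp4.1LG07g09170* (a GDSL gene). The ECM29 gene had stage log2 fold changes of 1.24, 1.52, and 2.06, within the span of 1 that counts as like size.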

How the results depend on the processing

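A count moved by more than 1.5 times under 4 settings. With limma on log2(FPKM + 1), which understates the change of low genes, 1824 genes were called over all stages and 377 in the same direction at all 3 stages, 364 of them among the 659. Without a fold-change limit these counts were 7636 and 1153, and 623 genes had a span of at most 1. With a span of at most 0.5 there were 78. Genes called over all stages with the same sign and no overlap at any stage numbered 1305, including 626 of the 659.

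The other settings kept each count within 1.5 times. The genes in the same direction were 661 with RLE scaling, 651 with upper-quartile scaling, 770 with DESeq2 (645 shared with the 659), 624 with limma-voom, 441 with separate fits of each stage (418 shared), and 614 with copies summed. Same-numbered libraries correlated at -0.250 to 0.256 over 9 pairs, and different-numbered ones at -0.416 to 0.464. With 3 replicates per group these values cannot settle whether the replicate numbers pair the samples. With the replicate block the count was 523, of which 502 were shared, and 2637 genes were called over all stages, 192 had a span of at most 1, and 26 SCW orthologs were lower.

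Leaving out each library gave 537 to 705 genes in the same direction, 3060 to 3447 over all stages, 178 to 237 of like size, 5269 to 9553 with an interaction (9553 without the hulled 10 DAP replicate 1), and 25 to 29 SCW orthologs lower. Of 80 named genes called, 75 stayed called under each alternative that tested them, and the other 5 fell short under 1 each (MYB44 with day as a number, 4 with log2(FPKM + 1)). Genes with a copy were not tested singly with copies summed, so the 75 do not cover that setting for them. For the 8 pairs of copies called in opposite directions, the sum was called over all stages in 0, an outcome that the choice of the pairs favours. Signs reversed for 3 of the named genes, none called over all stages with all libraries: *Cp4.1LG12g04350* (*CpNST1*) had -0.18 with day as a number and -0.76 without 20 DAP. *Cp4.1LG01g00110* had 0.41 without 5 DAP and 0.063 without 10 DAP. *Cp4.1LG01g14280* had 1.05 without 5 DAP and 0.53 without 10 DAP. Without 20 DAP the last was called at -1.86 and *Cp4.1LG01g00110* at -1.47 (edgeR adjusted p = 6.099e-05 and 0.000172). *Cp4.1LG12g02040* was called under 5 settings, at 1.06 to 2.25: DESeq2, the mean of the stage contrasts, without 20 DAP, and without the hull-less 20 DAP replicate 1 or 3. The cause was not tested.

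Depth limits genes near the floor: 412 of the 659 had 3 counts or fewer in some library, so their fitted fold changes depend on the prior count.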
